A study of Mus musculus with 6 samples.

Results

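Mast cell genes were examined in the colon of mice prone (OP) or resistant (OR) to obesity, as 9 named genes, and all 9 were among the 17778 genes of the deposited expression table. The genes were *Mcpt1*, *Mcpt2*, *Mcpt4*, *Cma1*, *Cpa3*, *Tpsb2*, *Fcer1a*, *Ms4a2* and *Hdc*, and they were chosen by name. Colon RNA of 3 OP and 3 OR mice was sequenced, with each labelled sample taken as 1 mouse. All 6 were male wild-type C57BL/6J mice, 21 weeks of age, that had eaten the same high-fat diet for 16 weeks. OP mice came from the upper quartile of weight gain on that diet and OR mice from the lower quartile, so the groups were defined by an outcome in mice of 1 inbred strain and not by an allele or an agent. Values are FPKM, sequenced fragments scaled to 1 kilobase of transcript and to 1000000 mapped fragments, so levels of different genes are compared per length.

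Mast cells are tissue-resident immune cells that store proteases and histamine in granules and release them when antigen crosslinks immunoglobulin E (IgE) held by the high-affinity IgE receptor. In the mouse gut, mucosal mast cells lie in and near the epithelium and are known for the chymases *Mcpt1* and *Mcpt2*. Connective tissue mast cells lie deeper in the wall and are known for *Mcpt4*, *Cma1*, *Tpsb2* and *Cpa3*. GATA2 and MITF are transcription factors on which mast cells depend.

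Of the 9 mast cell genes, 2 could be read and 7 were too low to read. A gene was counted as readable when its FPKM was at least 0.5 in at least 3 of the 6 mice, a level reached by 13520 of the 17778 genes. The readable genes were the mucosal mast cell chymases *Mcpt1* and *Mcpt2*. They took between 60.1% and 94.5% of the summed FPKM of the 9 genes in a mouse. In the other 7 genes only 2 of the 42 values reached 0.5, 10 values were 0, and the highest was 0.53.

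The upstream sequences of the genes are shown first, because those of the readable *Mcpt1* and the unreadable *Mcpt4* were closely similar. Sequences for 7 of the 9 genes were matched by symbol in RefSeq (GRCm38.p6), and the 250 bases before the annotated start are printed 5′ to 3′ on the gene's strand. Capitals mark the letters searched for GATA factors on both strands, namely AGATAA and its variant AGATAG and, with T as the first base, TGATAA and its variant TGATAG. The *Mcpt1* sequence lies at chr14:56017714-56017963 (plus strand), *Mcpt4* at chr14:56062311-56062560 (minus strand), *Cpa3* at chr3:20242182-20242431 (minus strand) and *Ms4a2* at chr19:11623720-11623969 (minus strand).
Mcpt1: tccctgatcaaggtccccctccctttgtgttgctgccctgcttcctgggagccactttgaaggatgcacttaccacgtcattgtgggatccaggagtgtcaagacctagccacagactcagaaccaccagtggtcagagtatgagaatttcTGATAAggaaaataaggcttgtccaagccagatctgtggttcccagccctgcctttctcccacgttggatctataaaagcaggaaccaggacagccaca
Mcpt4: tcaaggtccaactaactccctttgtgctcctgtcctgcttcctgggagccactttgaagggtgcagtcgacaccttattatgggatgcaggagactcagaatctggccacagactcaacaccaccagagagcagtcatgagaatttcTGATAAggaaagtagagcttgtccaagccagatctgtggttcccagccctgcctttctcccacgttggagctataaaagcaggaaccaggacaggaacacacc
Cpa3: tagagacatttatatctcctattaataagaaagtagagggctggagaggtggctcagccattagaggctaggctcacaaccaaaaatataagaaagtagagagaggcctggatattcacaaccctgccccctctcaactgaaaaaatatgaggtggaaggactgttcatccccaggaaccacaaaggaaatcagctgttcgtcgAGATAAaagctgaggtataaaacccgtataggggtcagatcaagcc
Ms4a2: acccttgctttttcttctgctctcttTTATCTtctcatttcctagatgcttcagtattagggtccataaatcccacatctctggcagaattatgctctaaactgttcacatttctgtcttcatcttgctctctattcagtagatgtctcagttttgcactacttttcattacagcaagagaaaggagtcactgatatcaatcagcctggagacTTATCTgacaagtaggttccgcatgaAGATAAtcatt

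All 7 sequences, from *Mcpt1*, *Mcpt4*, *Cpa3*, *Cma1*, *Fcer1a*, *Ms4a2* and *Hdc*, held at least 1 match to these letters, against 26.5% of the 32851 upstream sequences of the same length in the table. *Ms4a2* held 3 matches and each of the others held 1. The E-box letters CACGTG and the variant form CATGTG, which MITF is known to bind, were found in 1 of the 7 (*Fcer1a*) and in 17.6% of all sequences. *Mcpt1* and *Mcpt4* were identical at 207 of 254 aligned positions (81.5%), and TGATAA began 99 bases before the start in *Mcpt1* and 103 bases before it in *Mcpt4*. Any other pair among the 7 had an identity of at most 50.9%. A match describes letters in this window and is not a measured binding site.

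*Mcpt1*, the chymase of mucosal mast cells, measured 7.98, 7.23 and 2.85 FPKM in OP animals 1, 2 and 3 against 2.25, 18.77 and 1.47 in OR animals 1, 2 and 3. OR mouse 2 was the highest of the 6 mice, the other OR mice were the lowest, and the groups overlapped. *Mcpt2*, a chymase-like protease of the same cells, measured 4.11, 2.82 and 1.4 FPKM in the OP animals against 1.62, 10.18 and 0.19 in the OR animals. The same mouse was the highest and the same mouse the lowest in both genes.

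**Figure D1:**
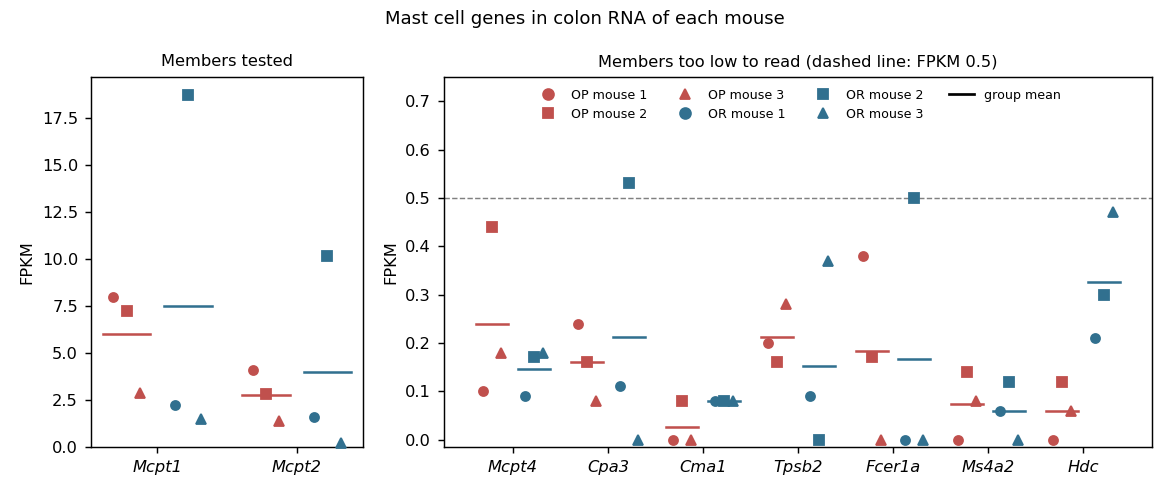
FPKM of the 9 mast cell genes in each mouse (points) with group means (lines), OP mice in red and OR mice in blue, with *Mcpt1* and *Mcpt2* on the left and the 7 genes too low to read on the right, on their own scale. OR mouse 2 stands at 18.77 for *Mcpt1* and 10.18 for *Mcpt2*, above all other mice, while the values on the right reach at most 0.53.

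*Mcpt1* averaged 6.02 ± 2.77 FPKM (SD, n = 3) in the OP group against 7.50 ± 9.77 (SD, n = 3) in the OR group. *Mcpt2* averaged 2.78 ± 1.36 FPKM (SD, n = 3) against 3.997 ± 5.40 (SD, n = 3). On the log2(FPKM + 1) scale the direction was the opposite of that of the means. The log2 fold change OP/OR of *Mcpt1* was 0.28 (standard error 0.77, 95% confidence interval -1.51 to 2.08, adjusted p = 0.964 by limma-trend with Benjamini-Hochberg adjustment over 13520 genes). For *Mcpt2* it was 0.14 (standard error 0.75, interval -1.62 to 1.90, adjusted p = 0.981 by limma-trend). A two-sided exact permutation test of the mean FPKM gave p = 1 for *Mcpt1* and p = 0.9 for *Mcpt2*, where 0.1 is the smallest p that 3 mice against 3 allow. In both genes the difference between the mean FPKM of the groups was smaller than the SD of either group. The interval of *Mcpt1* runs from 0.35-fold to 4.22-fold and that of *Mcpt2* from 0.325-fold to 3.74-fold on the FPKM + 1 scale. Differences within these bounds, in either direction, remain possible here.

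Genes were called at the thresholds of the study, a fold of 1.2 or more (or 0.83 or less) with q below 0.2. With DESeq2 the study itself reported more genes in each direction at these thresholds than the limma-trend fit called here. Of the readable mast cell genes, 0 of 2 were called. Over all genes tested, 0% were called higher and 0.0222% (3 of 13520) lower in OP mice. Before adjustment, 0 of 2 had a limma-trend p below 0.05 as well, against 0.503% of all genes higher and 3.53% lower in OP mice. Of all genes at that p, 87.5% were lower in OP mice, and 73.4% after median-of-ratios scaling, which moved the all-gene median of the log2 fold change from -0.10 to 0.01. The median over *Mcpt1* and *Mcpt2* was 0.21.

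The size and direction of these values rested on single mice. Without OR mouse 2, the log2 fold change of *Mcpt1* was 1.22 (standard error 0.41, interval 0.23 to 2.205, adjusted p = 0.851 by limma-trend). That of *Mcpt2* was 1.03 (standard error 0.45, interval -0.05 to 2.10, adjusted p = 0.851 by limma-trend). Without OR mouse 3 the values were -0.29 and -0.59, and without OR mouse 1 they were -0.09 and -0.02. With OP mouse 1 left out instead, *Mcpt1* had 0.06 and *Mcpt2* -0.11.

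The spread within groups was larger for these chymases than for most genes. In OR mice *Mcpt1* differed 12.8-fold and *Mcpt2* 53.6-fold between the highest and the lowest mouse, against 2.80-fold and 2.94-fold in OP mice. The lowest *Mcpt2* value, 0.19 in OR mouse 3, was below the readable level of 0.5, and between OR mice 1 and 3 alone *Mcpt1* differed 1.53-fold. The standard deviation between mice of the same group, pooled over the groups on the log2(FPKM + 1) scale, was 1.25 for *Mcpt1* and 1.22 for *Mcpt2*. The median over all genes tested was 0.253. Only 1.05% of the 2385 genes whose mean level lay within 0.5 of that of *Mcpt1* on this scale had a standard deviation as large, and 1.13% of the 2130 genes near *Mcpt2*.

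**Figure D2:**
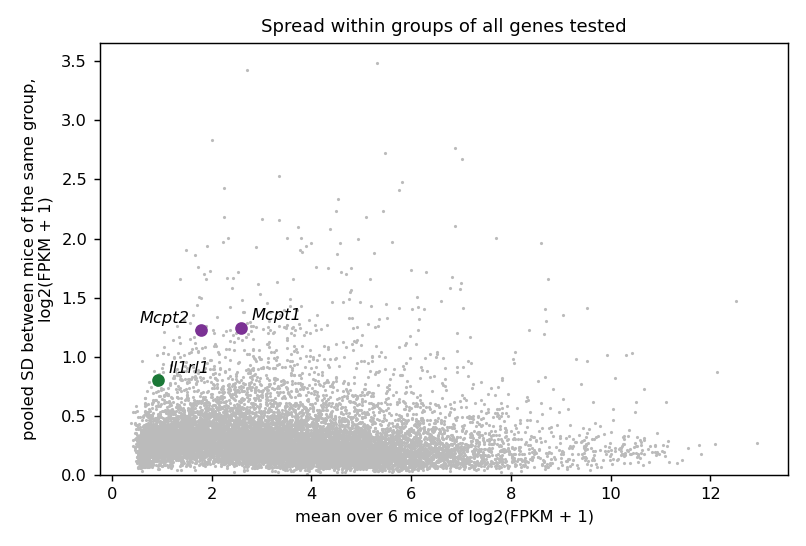
Pooled standard deviation between mice of the same group (vertical axis) against the mean over the 6 mice (horizontal axis), both on the log2(FPKM + 1) scale, with 1 grey point for each of the 13520 genes tested. *Mcpt1* (1.25) and *Mcpt2* (1.22) lie far above the median of all genes (0.253), and *Il1rl1*, the gene of the interleukin-33 receptor, is marked at 0.801.

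The chymases kept a similar proportion in most mice. The ratio of *Mcpt1* to *Mcpt2* FPKM was 1.94, 2.56 and 2.04 in the OP animals against 1.39, 1.84 and 7.74 in the OR animals. OR mouse 3, where *Mcpt2* was at 0.19, stood apart. The annotated transcripts of *Mcpt1* and *Mcpt2* (GENCODE M21) shared no stretch of 50 bases. Of the 50-base stretches of *Mcpt4*, 5.48% were also found in *Cma2*, a neighbouring chymase gene. The remaining genes of the list shared none with each other or with *Mcpt8*, *Mcpt9*, *Cma2*, *Tpsab1* or *Tpsg1*.

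OP mouse 1 and OR mouse 2 also had the highest *Car1*. The summed FPKM of 7 epithelial marker genes, led by the carbonic anhydrase gene *Car1*, was 18267 in OP mouse 1 and 19082 in OR mouse 2, and between 4878 and 9483 in the other mice. Over all genes tested, the deviations of these mice from their group means had a correlation of 0.537 across genes, which are not independent replicates. It was the highest among pairs of an OP and an OR mouse, of which the lowest was -0.464. OP mouse 3 with OR mouse 1 had 0.417, and OP mouse 2 with OR mouse 3 had 0.393. *Car1* carried the epithelial sum. Over the other 6 epithelial markers the sum was 3682, 3823 and 2192 FPKM in the OP animals against 2149, 3359 and 3144 in the OR animals, highest in OP mouse 2, and *Muc2* was lowest in OP mouse 1. The part of these differences in the chymase values was not tested. In bulk tissue, fewer mast cells and less RNA per mast cell cannot be told apart.

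Among the proteases of connective tissue mast cells, *Mcpt4*, a chymase, measured 0.1, 0.44 and 0.18 FPKM in the OP animals against 0.09, 0.17 and 0.18 in the OR animals. *Cma1*, also a chymase, was listed at 0 in OP mice 1 and 3 and at 0.08 in each of the other mice. *Tpsb2*, which encodes a tryptase, measured 0.2, 0.16 and 0.28 FPKM in the OP animals against 0.09, 0 and 0.37 in the OR animals. In all 3 genes the groups overlapped, and the values were too low to read a difference.

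*Cpa3*, the mast cell carboxypeptidase, measured 0.24, 0.16 and 0.08 FPKM in the OP animals against 0.11, 0.53 and 0 in the OR animals. *Fcer1a*, the IgE-binding chain of the receptor, measured 0.38, 0.17 and 0 FPKM in the OP animals against 0, 0.5 and 0 in the OR animals. The groups overlapped in both, and with all but 2 of these values below 0.5 no order of the mice was read from them. *Ms4a2*, the beta chain of the receptor, was lower still, with 0, 0.14 and 0.08 in the OP animals against 0.06, 0.12 and 0 in the OR animals.

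*Hdc*, which encodes the enzyme that makes histamine, was the only one of the 9 genes in which the groups did not overlap. It measured 0, 0.12 and 0.06 FPKM in the OP animals against 0.21, 0.3 and 0.47 in the OR animals. All 6 values were below 0.5, so the gene was not tested. Among the genes tested, all OP mice lay below all OR mice in 6.81% and above them in 1.63%. *Hdc* was not among those genes, and no share was computed for genes as low as *Hdc*.

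On the chromosome, *Cma1*, *Cma2*, *Mcpt1*, *Mcpt2*, *Mcpt9*, *Mcpt4* and *Mcpt8* follow each other in a run of 15 protein-coding genes that ends with the granzyme gene *Gzmb* (RefSeq, GRCm38.p6). Of these 15 genes, 9 were in the table, and 3 were tested, namely *Mcpt1*, *Mcpt2* and *Gzmb*. *Cma2* measured 0.48, 0.22 and 0.11 FPKM in the OP animals against 0, 1.05 and 0 in the OR animals, and passed 0.5 in OR mouse 2 alone. *Mcpt9* had 0.19 in OR mouse 2 and at most 0.04 in the others. Both *Cma2* and *Mcpt9* were too low to read, so no order of the mice was read from them. *Gzmb*, a protease of cytotoxic lymphocytes, was lowest in OP mouse 1 and highest in OR mouse 3, with 2.23, 4.49 and 11.88 FPKM in the OP animals against 12.87, 8.37 and 14.91 in the OR animals. The log2 fold change OP/OR came to -1.06 (standard error 0.48, limma-trend adjusted p = 0.945). *Cma2*, *Mcpt9* and *Gzmb* were named after their values had been seen.

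Other mast cell genes were taken from a list of 20, of which 17 were in the table and 16 were tested. Of the 16, 0 were called in either direction and 0 had an unadjusted p below 0.05. The log2 fold change was below 0 in 13 and above 0 in 3, with a median of -0.18, and 11 of the 16 lay below the median of all genes. After median-of-ratios scaling it was below 0 in 11. These counts and the median include *Gata2*, which passed the filter only through the OR mice, where it was higher. *Kit*, the stem cell factor receptor, measured 3.59, 14.29 and 14.5 FPKM in the OP animals against 11.62, 10.28 and 24.92 in the OR animals. It was lowest in OP mouse 1, a mouse with high chymase values. *Tpsg1*, a gene of the tryptase family named after its values had been seen, measured 3.26, 19.83 and 14.24 FPKM in the OP animals against 5.97, 15.81 and 40.06 in the OR animals. It was also lowest in OP mouse 1 and did not follow the order of the chymases. The epithelial marker *Muc2*, compared after the values had been seen, had the same order over the 6 mice as *Tpsg1*. It ran from 17.59 FPKM in OP mouse 1 to 933.17 in OR mouse 3. The part of epithelium in the *Tpsg1* values was not tested. Interstitial cells of Cajal express *Kit* too, and their chloride channel gene *Ano1* measured 4.99, 38.96 and 9.26 FPKM in the OP animals against 11.64, 7.31 and 14.42 in the OR animals, lowest in OP mouse 1 as well. The part of these cells in the *Kit* values was not tested.

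*Gata2* measured 0.42, 0.39 and 0.47 FPKM in the OP animals against 0.67, 0.81 and 1 in the OR animals. The groups did not overlap, but the gene passed the filter only through the OR mice, where it was higher, so no test is given. Endothelial cells express *Gata2* too, and the summed FPKM of 5 blood endothelium markers, led by *Pecam1*, ran from 7.11 to 13.2 across OP animals against 14.4 to 25.9 across OR animals, also without overlap. The part of endothelium in the *Gata2* values was not tested. *Fcer1g*, the signalling chain that the IgE receptor shares with receptors of other myeloid cells, measured 11.2, 4.55 and 13.07 FPKM in the OP animals against 15.73, 16.12 and 15.26 in the OR animals. The log2 fold change OP/OR came to -0.76 (standard error 0.34, limma-trend adjusted p = 0.945), and the groups did not overlap. Beside it, the summed FPKM of 7 macrophage markers, led by *C1qa*, ran from 25.5 to 65.0 across OP animals against 71.2 to 101 across OR animals, also without overlap, and the part of macrophages in the *Fcer1g* values was not tested.

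Genes that signal below the IgE receptor were read from a list of 14, all of which were tested. Of these, 0 were called, 6 had a log2 fold change below 0 and 8 above 0, with a median of 0.04, and 5 lay below the median of all genes under each scaling. *Syk*, the kinase that docks on the receptor and that epithelial and other immune cells also express, was the one with an unadjusted p below 0.05. It measured 31.31, 47.02 and 20 FPKM in the OP animals against 16.38, 22.92 and 16.98 in the OR animals (log2 fold change 0.71, standard error 0.30, adjusted p = 0.945 by limma-trend), and the groups overlapped.

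Genes of histamine breakdown, transport and reception numbered 7, of which 4 were tested and 0 were called, with a median log2 fold change of -0.25. *Hrh2*, *Hrh3* and *Hrh4*, histamine receptor genes, were too low to read.

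Signals for mast cell growth, homing and activation were read from a list of 19, of which 16 were in the table and 10 were tested. Of the 10, 0 were called, and all 10 had a log2 fold change below 0, with a median of -0.23 beside the median of -0.10 over all genes. After median-of-ratios scaling 8 of the 10 were below 0, and 8 lay below the median of all genes under each scaling. *Kitl*, which encodes stem cell factor, averaged 26.3 ± 7.16 FPKM (SD, n = 3) in the OP group against 26.6 ± 7.06 (SD, n = 3) in the OR group. *Il33*, which encodes an alarmin of stromal and epithelial cells that activates mast cells, measured 0.72, 1.16 and 0.68 FPKM in the OP animals against 2.61, 1.67 and 2.13 in the OR animals. The groups did not overlap, and its log2 fold change was -0.76 (standard error 0.20, interval -1.22 to -0.30), with an unadjusted p of 0.00574 and an adjusted p of 0.798 by limma-trend.

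With each mouse left out in turn, *Il33* stayed between -0.87 and -0.65, and with a pseudocount of 0.1 it was -1.24. Fibroblast markers, as a sum, also separated the groups, but with another order of mice within them. The summed FPKM of 6 fibroblast markers, led by *Dcn*, ran from 87.2 to 159 across OP animals against 233 to 434 across OR animals. Among OP mice *Il33* was highest in mouse 2, where this sum was lowest. The part of fibroblasts in the *Il33* values was not tested. *Il1rl1*, the receptor of interleukin-33 on mast cells and on some lymphocytes, measured 2.34, 0.24 and 0.21 FPKM in the OP animals against 0.23, 2.55 and 1.03 in the OR animals. Its highest mice were OR mouse 2 and OP mouse 1, as for *Mcpt1*, but OR mouse 3 was above OP mouse 2, the reverse of *Mcpt1*. Its correlation with the mean chymase profile was 0.612 over 6 mice and 0.282 without OR mouse 2, and it was named after its values had been seen.

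**Figure D3:**
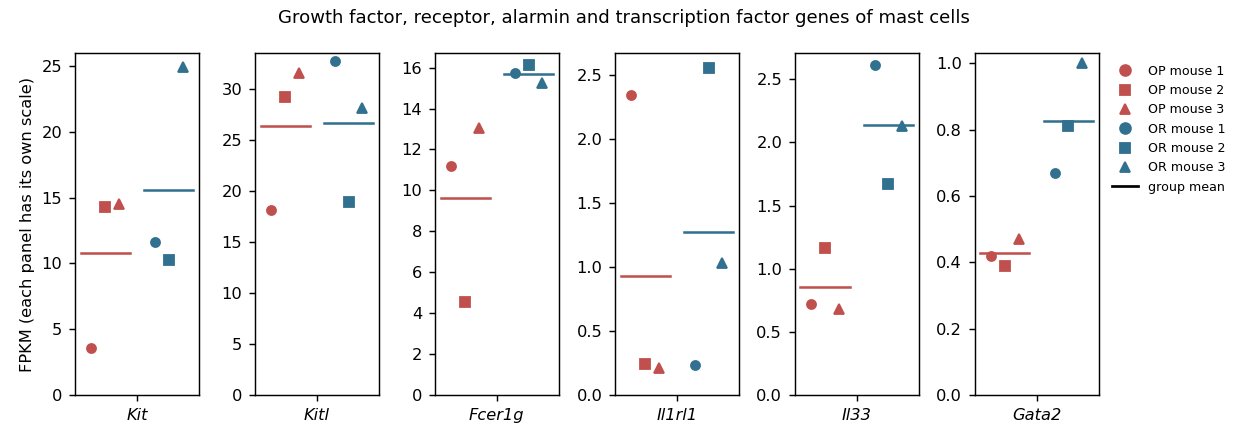
FPKM of 6 genes tied to mast cells in each mouse (points) with group means (lines), OP mice in red and OR mice in blue, each panel on its own scale from 0. *Il1rl1* is at 2.55 in OR mouse 2 and 2.34 in OP mouse 1, while *Fcer1g* and *Il33* have all OR mice above all OP mice, as has *Gata2*, which passed the filter only through the OR mice.

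**Figure D4:**
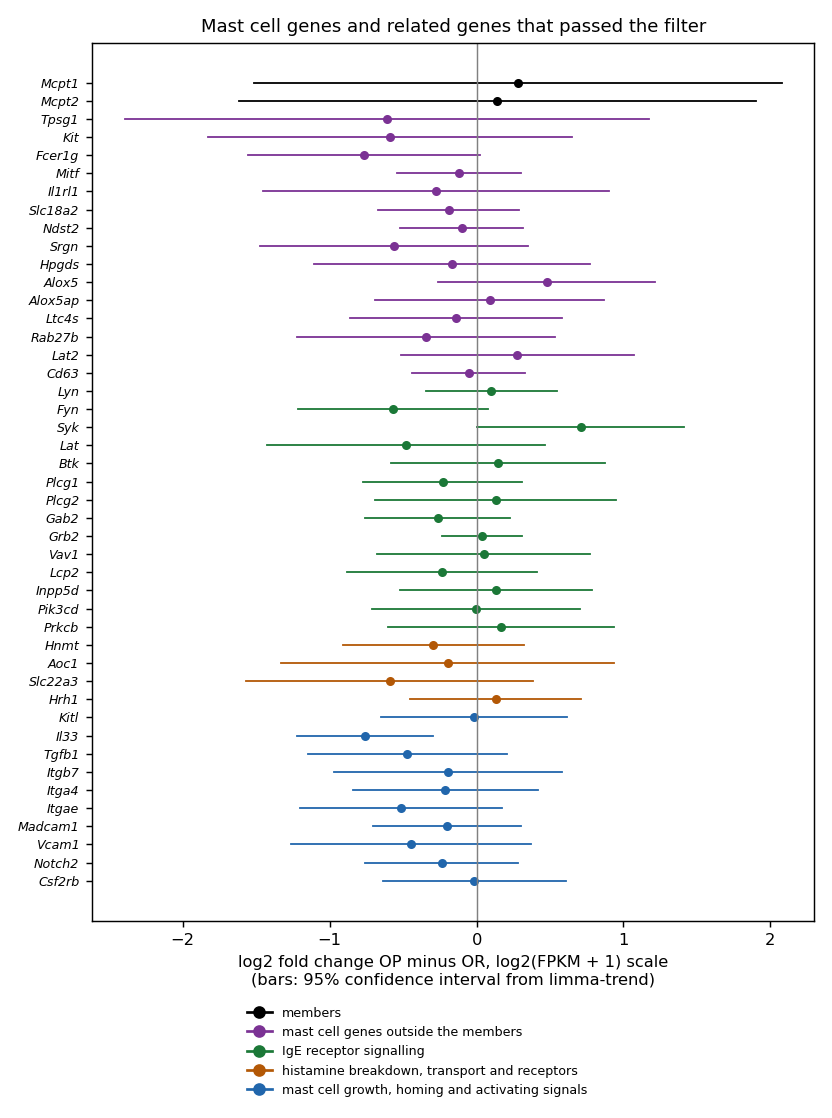
Log2 fold change OP/OR on the log2(FPKM + 1) scale (points) with 95% confidence intervals (bars) for *Mcpt1*, *Mcpt2* and the related genes that passed the filter, without *Gata2*, coloured by list. The intervals of *Mcpt1* and *Mcpt2* reach from -1.51 to 2.08 and from -1.62 to 1.90, and that of *Il33* from -1.22 to -0.30.

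Markers of basophils, eosinophils and neutrophils were read as well. *Il3ra* of the basophil list and *Siglecf* of the eosinophil list reached 0.5 FPKM in all 6 mice. Of 4 basophil markers, *Mcpt8* and *Cd200r3* were too low to read, *Prss34* was not in the table, and *Il3ra* alone was tested. Their summed FPKM ran from 0.90 to 2.11 across OP animals against 1.62 to 2.67 across OR animals. The sum of the eosinophil markers in the table, led by *Siglecf*, ran from 2.12 to 6.16 across OP animals against 3.06 to 4.37 across OR animals. In that list *Prg2*, which encodes a granule protein and was named after its values had been seen, did not overlap between the groups. It measured 0.25, 0 and 0.92 FPKM in the OP animals against 1.22, 1.21 and 1.03 in the OR animals. Its values in OP mice 1 and 2 were below the readable level of 0.5. Over all genes tested, all OP mice lay below all OR mice in 6.81%. *Siglecf*, the only other marker of the list that was tested, went the other way, with a log2 fold change of 0.27. It measured 1.84, 2.6 and 5.16 FPKM in the OP animals against 3.02, 1.77 and 2.21 in the OR animals, with overlap. The sum of 5 neutrophil markers was 15.2 in OP mouse 2 and between 1.19 and 2.86 in the other mice. In OP mouse 2 *Ly6g* alone measured 12.54, so that sum rested on 1 gene. *Ly6g* reached 0.5 in only 2 mice and was not tested. The colon marker genes *Car1*, *Car4*, *Slc26a3*, *Muc2* and *Zg16* were readable in every mouse.

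The genes whose pattern over the 6 mice was most like that of *Mcpt1* and *Mcpt2* were sought among the 13518 other genes tested, by Pearson correlation with the mean of the standardised chymase profiles. The 5 most like it were *Ppp1r3b*, *Oma1*, *Lypla1*, *1700029I15Rik* and *Mcrip2*, with correlations from 0.953 to 0.986 over 6 mice. A correlation of at least 0.9 was found in 30 genes and one of at most -0.9 in 107. Of the 5 most similar genes, 4 varied far less in size than the chymases, and *1700029I15Rik* was listed at 0 in 3 mice. *Lypla1*, a thioesterase gene, differed 1.24-fold and *Ppp1r3b*, which encodes a glycogen-targeting phosphatase subunit, 1.59-fold between the highest and the lowest mouse, against 12.8-fold for *Mcpt1*.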

How the data were processed

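Colon RNA of 3 OP and 3 OR mice was analysed. The authors filtered the reads, aligned them to a mouse reference gene set with Bowtie2, quantified genes with RSEM and deposited FPKM values, rounded to 2 decimals, for each mouse. The processing notes of the submitters also name HISAT2 2.0.4 and GRCm39, and versions of Bowtie2 and RSEM differ between sources. The FPKM values of a mouse summed to between 585350 and 600028, and 16287 to 16619 genes were above 0. Read totals are not part of FPKM values, and the 7048 values above 0 and below 0.1 took only 9 levels, so steps of single reads could not be resolved and the depth is unknown.

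Groups and replicate numbers were taken from the sample labels, which number the samples of a group without stating outright that each is a different mouse. If they are not, p-values measure technical spread only. Genes that reached 0.5 FPKM in 3 or more mice were compared on log2(FPKM + 1) by limma-trend (limma 3.58.1, R 4.3.3) with Benjamini-Hochberg q-values. DESeq2, the authors' tool, needs counts and was not run. Mean FPKM was compared with exact permutation tests (SciPy 1.17.1), with 20 arrangements. The fit was tested on simulated data. The genes examined, the gene lists and the tests were chosen with earlier results of these data known. Named genes were the 9 mast cell genes, *Kit*, *Kitl*, *Gata2*, *Mrgprb2*, *Tpsab1*, *Fcer1g* and *Il33* (*Mrgprb2* and *Tpsab1* were not in the table), up to 4 genes per related (not marker) list with an unadjusted p below 0.05, the highest gene of a marker list and the 5 most similar genes. *Il1rl1*, *Hrh2*, *Hrh3*, *Hrh4*, *Cma2*, *Mcpt9*, *Tpsg1*, *Prg2* and *Gzmb* were named after their values had been seen. The alternatives tried comprised an untrended limma fit, scaling by median of ratios, rescaling to TPM, a pseudocount of 0.1, other filters, sample weights, a replicate block and each mouse left out. Leaving out OP mouse 1 and OR mouse 2 together, and summing *Mcpt1* and *Mcpt2*, were chosen after seeing the data. Some genes of the marker lists are not reported here.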

Additional observations from a re-analysis of the deposited data

How the results depend on the processing

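Under all alternatives run, 0 of the readable mast cell genes and 0 genes of the related lists were called, and 0 genes in all were called higher in OP mice. The 3 genes called lower over the whole table became 5 with sample weights and 0 with median-of-ratios scaling, TPM, a pseudocount of 0.1, either other filter, the replicate block, or OP mouse 1 and OR mouse 2 left out together. With single mice left out the count was 0 to 1, and the cause was not tested. The log2 fold change of *Mcpt1* (0.28) ranged from -0.29 to 1.22 over single mice left out, turning without OR mouse 1 and without OR mouse 3. That of *Mcpt2* (0.14) ranged from -0.59 to 1.03, turning without either of these or OP mouse 1, and *Il1rl1* (-0.27) ranged from -0.76 to 0.11, turning without OR mouse 2. The other alternatives kept both chymases above 0, up to 0.990 for *Mcpt1* and 0.778 for *Mcpt2* without OP mouse 1 and OR mouse 2 together, and their summed FPKM gave 0.32. *Mcpt2* was not tested when all 6 mice had to reach 1 FPKM. Replicate numbers only count the samples of a group, so they were not taken as pairs in the main fit. Deviations of same-numbered mice had correlations of -0.157 to 0.0709 across genes. These values cannot settle whether samples were paired, because the deviations within a group depend on each other. With the replicate block *Mcpt1* stayed at 0.28 (standard error 0.49) and *Mcpt2* at 0.14 (standard error 0.50). The unknown depth limits what can be said of the 7 genes too low to read.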
